A study of Mus musculus with 9 samples.

Results

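The Frizzled and LRP receptors of WNT were followed in granulosa cells, which line the ovarian follicle and nurse the oocyte, through every probe set that the platform annotation assigns to 1 of 10 receptor genes and to no other gene. The genes are Fzd1 to Fzd8, Lrp5 and Lrp6, and they are 10 of the 18193 genes named on the array and hold 26 of the 45037 probe sets tested. The probe sets were taken by gene symbol alone, though the genes were chosen with earlier results of these data known. RNA of cultured mouse cells was measured on 9 Affymetrix arrays, 3 for cells given an adenovirus that overexpresses WNT4, 3 for cells given one that expresses Cre recombinase and 3 for cells given one that expresses eGFP, the controls. The donors were mice aged 20 to 26 days that had received eCG, a gonadotrophin that drives follicle growth, 48 h before. Cells from punctured follicles were plated overnight with 1% serum and then infected for 24 h in serum-free medium. The virus dose was about 50 infectious units per cell (multiplicity of infection), at which over 80% of cells were infected. Cre recombines floxed alleles of Ctnnb1, the beta-catenin gene. The mice had various genotypes. No source used here ties a genotype to a group or tells the kind of floxed allele, so whether beta-catenin was lost or gained is not known here. A group is therefore a virus, and the control cells carried a virus too.

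Frizzled proteins are transmembrane receptors whose extracellular cysteine-rich domain binds the lipid-modified WNT ligand. LRP5 and LRP6 are the co-receptors of the canonical branch: a WNT bridges a Frizzled and an LRP, the cytoplasmic tail of the LRP is phosphorylated and captures Axin, and beta-catenin escapes degradation and acts with TCF/LEF factors in the nucleus. Other Frizzled signals run without LRP through Dishevelled to small GTPases. In the rodent ovary Fzd1 is known from the periovulatory follicle and Fzd4 from the corpus luteum, and female mice that lack Fzd4 are infertile with defective corpora lutea.

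No receptor probe set was called in any comparison by limma, at an adjusted p under 0.05 over all probe sets. In WNT4 against GFP 0 of the 26 were called, where 0.0155% of all probe sets (7) were, and the lowest adjusted p of a receptor was 0.26. In Cre against GFP 0 were called, where 0% of all probe sets were, with a lowest adjusted p of 1.00. In WNT4 against Cre 0 were called, again against 0%, with a lowest adjusted p of 0.775. At an unadjusted p under 0.05 the receptor counts were 4, 2 and 1 in these comparisons (15.4%, 7.69% and 3.85% of 26), where 13.0%, 2.23% and 6.23% of all probe sets lay under it. The directions below are differences of group means that did not pass the test.

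The values are log2 expression values that the authors made with RMA, so a difference of 1 is a factor of 2. They ran from 3.46 to 15.28 with array medians of 5.44 to 5.54, and the number of arrays limits the precision. Of the 26 receptor probe sets, 10 had a mean under 6 over the 9 arrays, near the array medians, as did 58.6% of all probe sets. The dim ones include the single probe set of Lrp5. Levels of different probe sets are not set against each other, since each has its own hybridisation efficiency. The labels call the replicates biological without naming separate animals, and the spread behind each p-value is the one between arrays, which may in part be technical. With 3 arrays against 3 an exact two-sided permutation test of 1 value cannot go below p = 0.1, which is what any pair of groups that does not overlap gives.

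Markers of the granulosa cell were present: 11 of 12 had a mean of at least 6, Amh, the anti-Mullerian hormone, being the dim one (mean 5.99). Their mean level was 10.1 to 10.7 on WNT4 arrays, 10.1 to 10.6 on Cre arrays and 10.47 to 10.8 on GFP arrays. At an unadjusted p under 0.05 limma counted 3 of the 12 as lower and 0 as higher in WNT4 against GFP, where 3.91% of all probe sets were lower, and likewise 3 and 0 in Cre against GFP, where 1.22% were lower, and it called 0. Bmpr1b, a BMP receptor, differed by -1.56 ± 0.29 in WNT4 (adjusted p = 0.171) and by -0.86 ± 0.29 in Cre. Esr2, oestrogen receptor beta, differed by -1.25 ± 0.36 and -0.63 ± 0.36, and Foxl2, a granulosa transcription factor, by -0.32 ± 0.11 and -0.28 ± 0.11. These were the 3 in WNT4 against GFP. In Cre against GFP the 3 were Bmpr1b, Foxl2 and Amh (-0.20 ± 0.09), while Esr2 had an unadjusted limma p of 0.11. The part of these markers in the receptor values was not tested. Markers of other cells are given for their variation between arrays, as mean levels of 6.96 to 8.14, 7.15 to 7.52 and 7.001 to 7.501 for theca and stroma in the same groups, 6.36 to 7.77, 6.24 to 7.25 and 6.07 to 6.99 for the oocyte, and 5.997 to 6.74, 6.08 to 6.81 and 6.11 to 6.73 for leukocytes. In each of these lists some genes were dim, 4 of 11 for theca and stroma, 3 of 9 for the oocyte and 3 of 9 for leukocytes, as were 6 of 7 endothelial, 3 of 3 erythrocyte and 5 of 8 surface epithelial markers. Array WNT4 1 had the highest mean of the theca list, with Dcn, the matrix proteoglycan decorin, at 9.50 against 6.41 to 7.10 on all other arrays. The list did not rise as a whole, since Acta2 (10.81) and Col1a1 (5.73) were lowest on this same array. In bulk RNA, fewer cells of a type and less RNA per cell cannot be told apart.

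The genes that the viruses were built to act on did not settle the labels. Wnt4 read 8.97, 9.89 and 9.16 on the arrays labelled WNT4, 11.25, 10.47 and 10.18 on those labelled Cre and 9.93, 9.16 and 9.13 on those labelled GFP (probe set 1450782_at). Every array labelled Cre thus lay above every array labelled WNT4 or GFP. Its other probe set, 1441687_at, read 9.91, 9.62 and 8.36 on the arrays labelled WNT4, 10.01, 9.81 and 9.05 on those labelled Cre and 9.13, 7.57 and 8.27 on those labelled GFP. By this probe set WNT4 1 and WNT4 2 lay above all GFP arrays, WNT4 3 lay within the GFP range, and WNT4 did not exceed Cre. Ctnnb1 read 14.08, 13.44 and 13.80 on the arrays labelled WNT4, 12.96, 13.55 and 13.33 on those labelled Cre and 13.40, 12.92 and 13.42 on those labelled GFP (1420811_a_at), and the Cre and GFP arrays overlapped. The WNT4 arrays lay above all GFP arrays by this probe set, narrowly, and by 1450008_a_at, but not by 1430533_a_at. Cre and GFP overlapped by these other probe sets too. Whether these probe sets lie in the viral transcript or in the deleted part is not known here, and one that lies outside checks nothing. Every direction below is therefore given for the arrays as labelled.

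Among the receptor genes, Fzd1 differed most from GFP in the Cre group and Fzd4 in the WNT4 group. The upstream sequences of the 3 genes whose WNT4 and Cre arrays all lay on 1 side of all GFP arrays are shown for reference, as the 250 bases before the RefSeq transcription start, 5′ to 3′ on the gene's strand. The positions, in GRCm38.p6, are chr5:4758217-4758466 (minus strand) for Fzd1, chr7:89404116-89404365 (plus strand) for Fzd4 and chr1:59481897-59482146 (plus strand) for Fzd7. Capitals mark a match to the TCF/LEF core searched on both strands.
Fzd1: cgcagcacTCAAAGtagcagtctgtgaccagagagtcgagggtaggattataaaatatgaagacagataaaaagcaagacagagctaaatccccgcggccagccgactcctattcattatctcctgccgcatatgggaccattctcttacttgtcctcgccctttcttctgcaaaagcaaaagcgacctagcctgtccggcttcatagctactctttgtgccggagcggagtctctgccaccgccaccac
Fzd4: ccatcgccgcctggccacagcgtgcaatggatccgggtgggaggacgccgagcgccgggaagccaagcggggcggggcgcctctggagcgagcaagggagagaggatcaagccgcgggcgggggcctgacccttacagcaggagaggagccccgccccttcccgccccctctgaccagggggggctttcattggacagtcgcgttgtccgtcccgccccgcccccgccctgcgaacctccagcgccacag
Fzd7: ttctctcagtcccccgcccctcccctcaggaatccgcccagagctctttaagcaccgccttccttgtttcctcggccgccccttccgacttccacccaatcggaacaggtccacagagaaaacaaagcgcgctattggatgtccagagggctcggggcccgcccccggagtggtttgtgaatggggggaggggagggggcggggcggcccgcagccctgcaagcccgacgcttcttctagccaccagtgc
The letters searched were CTTTGA (and its reverse complement TCAAAG) for TCF/LEF, AAGGTCA for the nuclear receptors SF-1 and LRH-1, and ACGTG for the core of hypoxia-response elements, each on both strands. The motifs do not overlap each other in these windows. Promoters of 4 receptor genes were matched in the RefSeq table, Fzd5 being the remaining one. Fzd1 held 1 TCF/LEF core, on the opposite strand and starting 242 bases before the transcription start, and the other 3 held none. Of 32851 promoter windows of the same length, 13.8% held this core, 4.1% the SF-1 motif and 16.6% the hypoxia core. The last 2 motifs had no match in the 4 receptor promoters. The G and C content was 51.2% for Fzd1, 72.8% for Fzd4, 76.4% for Fzd5 and 65.2% for Fzd7, where the median of all promoters was 52.4%. A match is a description of the letters and not a site.

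Fzd1, which can carry canonical WNT signals, was higher on every WNT4 and Cre array than on any GFP array, by its bright probe set 1437284_at. It read 8.48, 8.04 and 8.84 on the WNT4 arrays, 9.35, 8.24 and 8.99 on the Cre arrays and 7.52, 7.34 and 7.75 on the GFP arrays. The groups WNT4 and Cre overlapped each other, and Cre 1 was the highest array. WNT4 minus GFP was 0.92 ± 0.29 (SE, n = 3 arrays per group), or 1.89-fold, with a 95% interval of 0.26 to 1.57 and an adjusted p of 0.26. Cre minus GFP was 1.32 ± 0.29, or 2.498-fold, with an interval of 0.66 to 1.98, an unadjusted p of 0.00145 and an adjusted p of 1.00. This last value had a size above that of 99.9% of all probe sets in the comparison. WNT4 minus Cre was -0.40 ± 0.29 (interval -1.06 to 0.25). By array number, a pairing that the labels do not give, WNT4 was lower than Cre in 3 of 3 pairs. With the number as a block the difference was -0.40 ± 0.18 (adjusted p = 0.685). The other probe set, 1422985_at, was dim and flat, at 5.32 on each WNT4 array, 5.19 to 5.56 on Cre arrays and 5.32 to 5.37 on GFP arrays, so the Fzd1 difference rests on 1 probe set of 2. As the mean of both, Fzd1 differed from GFP by 0.45 in WNT4 and 0.67 in Cre.

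**Figure D1:**
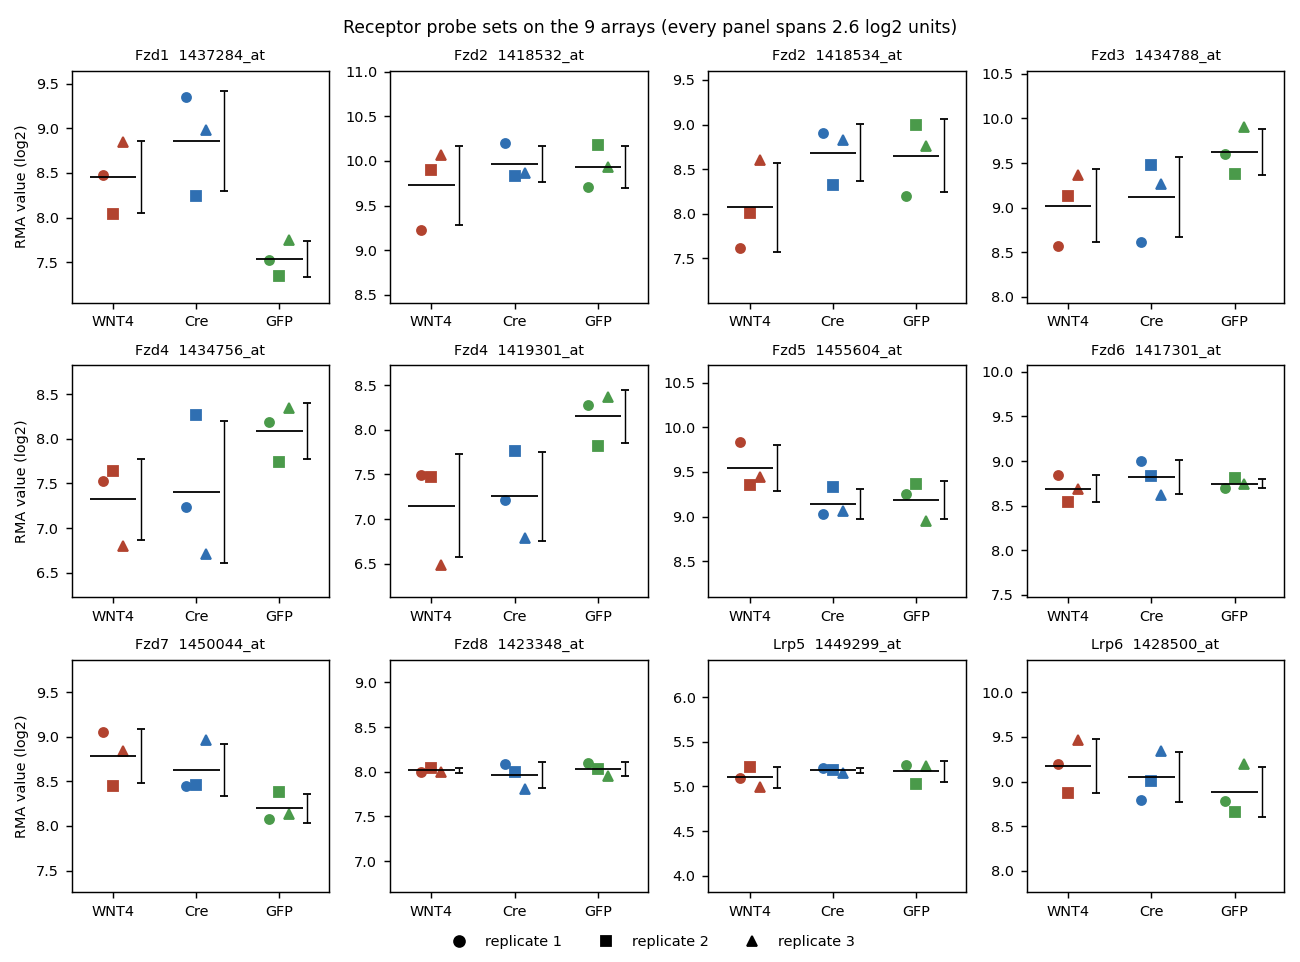
RMA values (log2, vertical axes) of the 12 receptor probe sets described array by array, in the groups WNT4, Cre and GFP. Symbols are arrays, the bar is the group mean and the bracket ± 1 SD (n = 3). Fzd1 lies between 8.04 and 9.35 on WNT4 and Cre arrays and between 7.34 and 7.75 on GFP arrays, while Fzd8 stays between 7.81 and 8.10 on all 9.

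Of all receptor probe sets this Fzd1 probe set varied most over the 9 arrays (SD 0.69). The genes whose array pattern lay nearest to it were sought among 10555 genes with a mean of at least 6, as the smallest root-mean-square difference between log2 values centred on their own means over the 9 arrays. The nearest was Axin2, the feedback inhibitor of beta-catenin signalling, at 0.26, against the 0.69 by which Fzd1 itself varies. Next came Dync1i1, a dynein intermediate chain, at 0.33, and Gli3, a hedgehog transcription factor, at 0.36. Zhx2, a homeobox repressor (0.36), and Efemp1, a matrix glycoprotein (0.37), completed the first 5. Bambi, a decoy receptor of the TGF-beta family, stood at rank 7 (0.37) and is named after its value was seen. The 9 arrays and 3 groups are shared by all these genes, so nearness describes these arrays alone.

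Axin2 read 8.14, 7.39 and 7.87 on WNT4 arrays, 9.27, 7.94 and 8.47 on Cre arrays and 7.42, 6.78 and 7.24 on GFP arrays. As for Fzd1, Cre 1 was its highest array and WNT4 2 its lowest outside the controls. Axin2 differed from GFP by 0.65 ± 0.33 in WNT4 (adjusted p = 0.452) and by 1.41 ± 0.33 in Cre (adjusted p = 1.00), and neither passed. WNT4 minus Cre was -0.76 ± 0.33 (adjusted p = 0.799), with WNT4 lower in 3 of 3 pairs by array number.

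**Figure D2:**
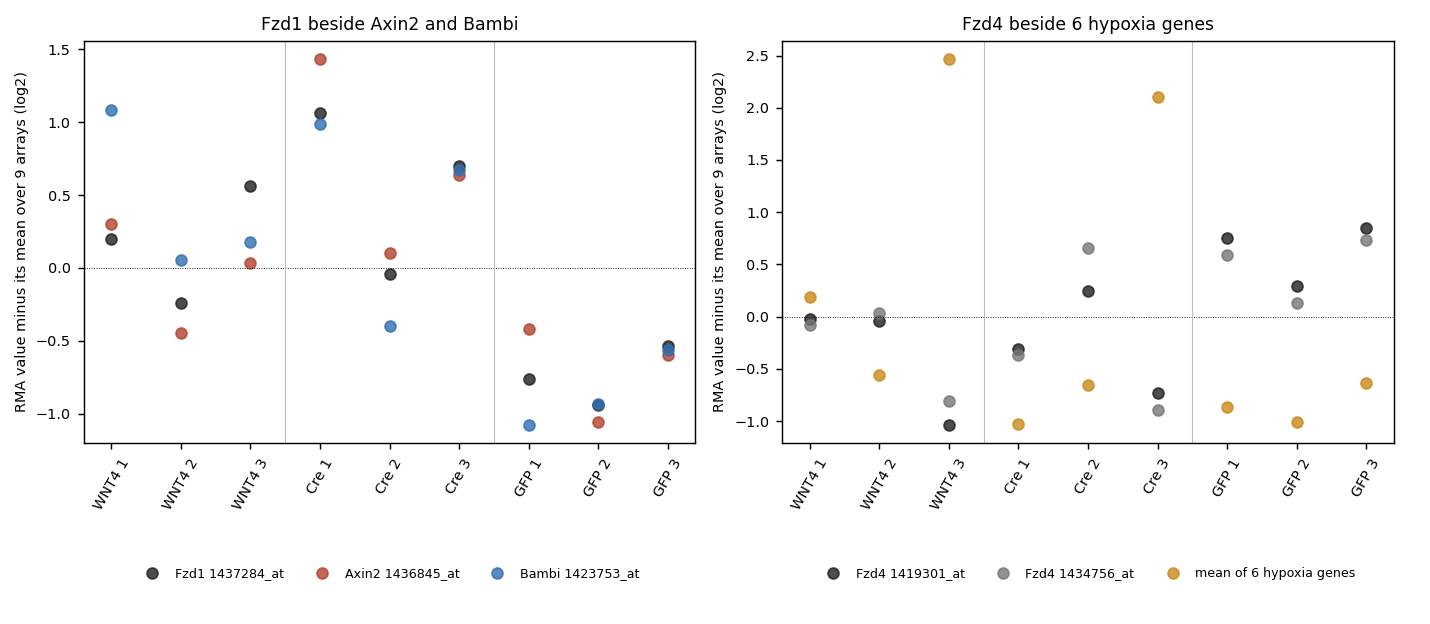
RMA values minus their mean over the 9 arrays (log2, vertical axes) on each array, with Fzd1, Axin2 and Bambi on the left and both bright Fzd4 probe sets with the mean of 6 hypoxia genes on the right. Fzd1 and Axin2 are both highest on Cre 1 and lie below 0 on all 3 GFP arrays, while Fzd4 is lowest on WNT4 3 and Cre 3, the arrays where the hypoxia genes are highest.

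Fzd4, the receptor of WNTs and of norrin that luteal and vascular development needs, was lower on every WNT4 and Cre array than on any GFP array by probe set 1419301_at. It read 7.49, 7.47 and 6.48 on WNT4 arrays, 7.21, 7.77 and 6.78 on Cre arrays and 8.27, 7.81 and 8.37 on GFP arrays. The margin was narrow, 7.77 on Cre 2 beside 7.81 on GFP 2. WNT4 minus GFP was -1.003 ± 0.33, a 2.004-fold difference (95% interval -1.74 to -0.26, adjusted p = 0.27). Cre minus GFP was -0.90 ± 0.33 (interval -1.64 to -0.16, adjusted p = 1.00). WNT4 and Cre overlapped, with a difference of -0.10 ± 0.33.

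The remaining bright Fzd4 probe set, 1434756_at, followed the same arrays less cleanly. It read 7.52, 7.64 and 6.80 on WNT4 arrays, 7.23, 8.27 and 6.71 on Cre arrays and 8.19, 7.73 and 8.34 on GFP arrays. The WNT4 arrays lay below GFP, at -0.77 ± 0.38, while Cre 2 lay within the GFP range and Cre minus GFP was -0.69 ± 0.38. The third probe set, 1449416_at, was dim, at 3.83 to 4.19 on all arrays, and differed from GFP by -0.00 in WNT4 and -0.06 in Cre.

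Both bright Fzd4 probe sets were lowest on WNT4 3 and Cre 3, and these arrays stood apart in hypoxia genes as well. A list of 6 (Vegfa, Slc2a1, Pgk1, Adm, Ndrg1 and Bnip3), written with the arrays' hypoxia values known, had a mean level of 12.9 on WNT4 3 and 12.5 on Cre 3. On WNT4 1 and WNT4 2 it was 10.6 and 9.84, on Cre 1 and Cre 2 it was 9.36 and 9.74, and on GFP arrays it was 9.38 to 9.76. The granulosa markers were at their lowest mean on these same arrays, 10.1 on each. Without both arrays, a fit chosen after seeing the data, 1419301_at differed from GFP by -0.67 ± 0.22 in WNT4 and by -0.66 ± 0.22 in Cre, and 1434756_at by -0.51 ± 0.31 and -0.34 ± 0.31. The part of the hypoxia genes in the Fzd4 values was not tested.

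Fzd7, a close relative of Fzd1 and Fzd2 that is widely used in canonical signalling, was higher on all WNT4 and Cre arrays by its bright probe set. It read 9.05, 8.45 and 8.83 on WNT4 arrays, 8.45, 8.46 and 8.96 on Cre arrays and 8.07, 8.38 and 8.14 on GFP arrays (1450044_at). The lowest WNT4 and Cre arrays, at 8.45 each, stood just above GFP 2. Its WNT4 minus GFP difference was 0.58 ± 0.19, or 1.496-fold (interval 0.15 to 1.01, adjusted p = 0.27), and Cre minus GFP was 0.43 ± 0.19 (interval -0.00 to 0.85). Without Cre 3 the difference of Cre was 0.26. As the mean of its probe sets, Fzd7 differed from GFP by 0.30 in WNT4 and 0.11 in Cre. Its dim probe set 1450043_at overlapped in all comparisons, with WNT4 minus GFP at 0.02 and Cre minus GFP at -0.21.

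When the WNT4 and Cre arrays were pooled against GFP, a contrast chosen after seeing the data, 3 receptor probe sets did not overlap with the controls (11.5% of 26), where 3.09% of all probe sets did not. In 2 the pooled arrays were higher (1.81% of all) and in 1 lower (1.28% of all). They were those of Fzd1 (1.12 ± 0.25, 2.17-fold), Fzd7 (0.50 ± 0.16) and Fzd4 (1419301_at, -0.95 ± 0.28). In limma's test of the same contrast the adjusted p was 0.525, 0.578 and 0.562, and 0% of all probe sets were called. At an unadjusted p under 0.05 it counted 4 receptor probe sets, the fourth being Fzd3 1434788_at, where 7.76% of all lay under it. The comparisons of WNT4 and of Cre with GFP share the 3 GFP arrays, so their values do not stand as separate evidence.

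Fzd2, the remaining relative of Fzd1 and Fzd7 and a receptor of WNT5A in other cells, was measured by 3 bright probe sets with the same order of group means. By 1418532_at it read 9.23, 9.89 and 10.06 on WNT4 arrays, 10.20, 9.83 and 9.87 on Cre arrays and 9.71, 10.18 and 9.93 on GFP arrays. By 1418534_at it read 7.61, 8.01 and 8.60 on WNT4 arrays, 8.91, 8.32 and 8.83 on Cre arrays and 8.20, 8.996 and 8.76 on GFP arrays. The groups overlapped, and WNT4 1 was the lowest array for all 3 probe sets. WNT4 minus GFP was -0.21, -0.23 and -0.58 over the probe sets (SE 0.22, 0.19 and 0.29), and WNT4 minus Cre was -0.24, -0.33 and -0.61. Without WNT4 1 the first of these was 0.04. Cre minus GFP was 0.03 to 0.10.

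Fzd3, known for axon guidance and planar polarity, had 6 probe sets that did not move as 1. The brightest, 1434788_at, read 8.57, 9.13 and 9.36 on WNT4 arrays, 8.62, 9.47 and 9.27 on Cre arrays and 9.60, 9.38 and 9.90 on GFP arrays. WNT4 3 lay just below GFP 2, so the groups did not overlap, and WNT4 minus GFP was -0.60 ± 0.27 (interval -1.21 to 0.00, adjusted p = 0.38). Probe set 1421157_at did not overlap either, at -0.33 ± 0.12, and was the only Fzd3 probe set apart between WNT4 and Cre (-0.26 ± 0.12). The other 2 bright ones were at -0.03 and -0.19 for WNT4 minus GFP, with overlapping groups. Of the 2 dim ones neither differed by more than 0.12 in any comparison. Cre minus GFP ran from -0.51 to 0.07 over the 6, and all 6 overlapped.

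Fzd5, a canonical receptor needed in the mouse placental vasculature and gut, was the receptor apart between WNT4 and Cre with WNT4 higher. It read 9.84, 9.36 and 9.44 on WNT4 arrays, 9.03, 9.33 and 9.06 on Cre arrays and 9.25, 9.36 and 8.95 on GFP arrays (1455604_at). WNT4 minus Cre was 0.41 ± 0.16, or 1.33-fold (interval 0.04 to 0.77, adjusted p = 0.775), with WNT4 2 just above Cre 2. The difference of WNT4 from GFP was 0.36 ± 0.16 with overlapping groups, and both differences shrank under quantile normalization, to 0.24 over Cre and to 0.15 over GFP. As the mean of its probe sets, Fzd5 differed by 0.05 from Cre and by 0.07 from GFP. The dim probe set 1422937_at pointed the other way, at -0.30 for WNT4 minus Cre.

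Fzd6 and Fzd8 varied little. Fzd6, a planar polarity receptor of hair and skin patterning, read 8.85, 8.55 and 8.68 on WNT4 arrays, 9.001, 8.84 and 8.63 on Cre arrays and 8.70, 8.81 and 8.74 on GFP arrays (1417301_at). WNT4 minus GFP was -0.06 (interval -0.33 to 0.21) and Cre minus GFP 0.07 (-0.20 to 0.34). Fzd8, a receptor much used in crystal structures of WNT binding, read 7.99, 8.05 and 8.001 on WNT4 arrays, 8.08, 8.001 and 7.81 on Cre arrays and 8.10, 8.03 and 7.95 on GFP arrays (1423348_at). For Fzd8 the interval was -0.23 to 0.20 for WNT4 minus GFP and -0.28 to 0.15 for Cre minus GFP, the narrowest of the bright receptor probe sets. Its dim probe set 1445815_at was apart between WNT4 and GFP, at -0.38 ± 0.21, with GFP 3 the highest array at 5.87. The 2 dim probe sets of Fzd6 overlapped in every comparison and differed by 0.18 at most.

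The co-receptors did not separate the groups. Lrp6 read 9.20, 8.87 and 9.47 on WNT4 arrays, 8.79, 9.004 and 9.35 on Cre arrays and 8.78, 8.66 and 9.20 on GFP arrays (1428500_at), and in each group the array numbered 3 was the highest. The WNT4 minus GFP difference was 0.30 ± 0.21 and Cre minus GFP 0.17 ± 0.21. Its other probe set, 1451022_at, pointed down, at -0.31 ± 0.14 and -0.14 ± 0.14, and the mean of both differed by -0.01 between WNT4 and GFP. Lrp5 was read by 1 dim probe set, at 4.99 to 5.22 on WNT4 arrays, 5.15 to 5.21 on Cre arrays and 5.03 to 5.25 on GFP arrays. A Lrp5 difference was not detectable at this signal, near the array medians.

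**Figure D3:**
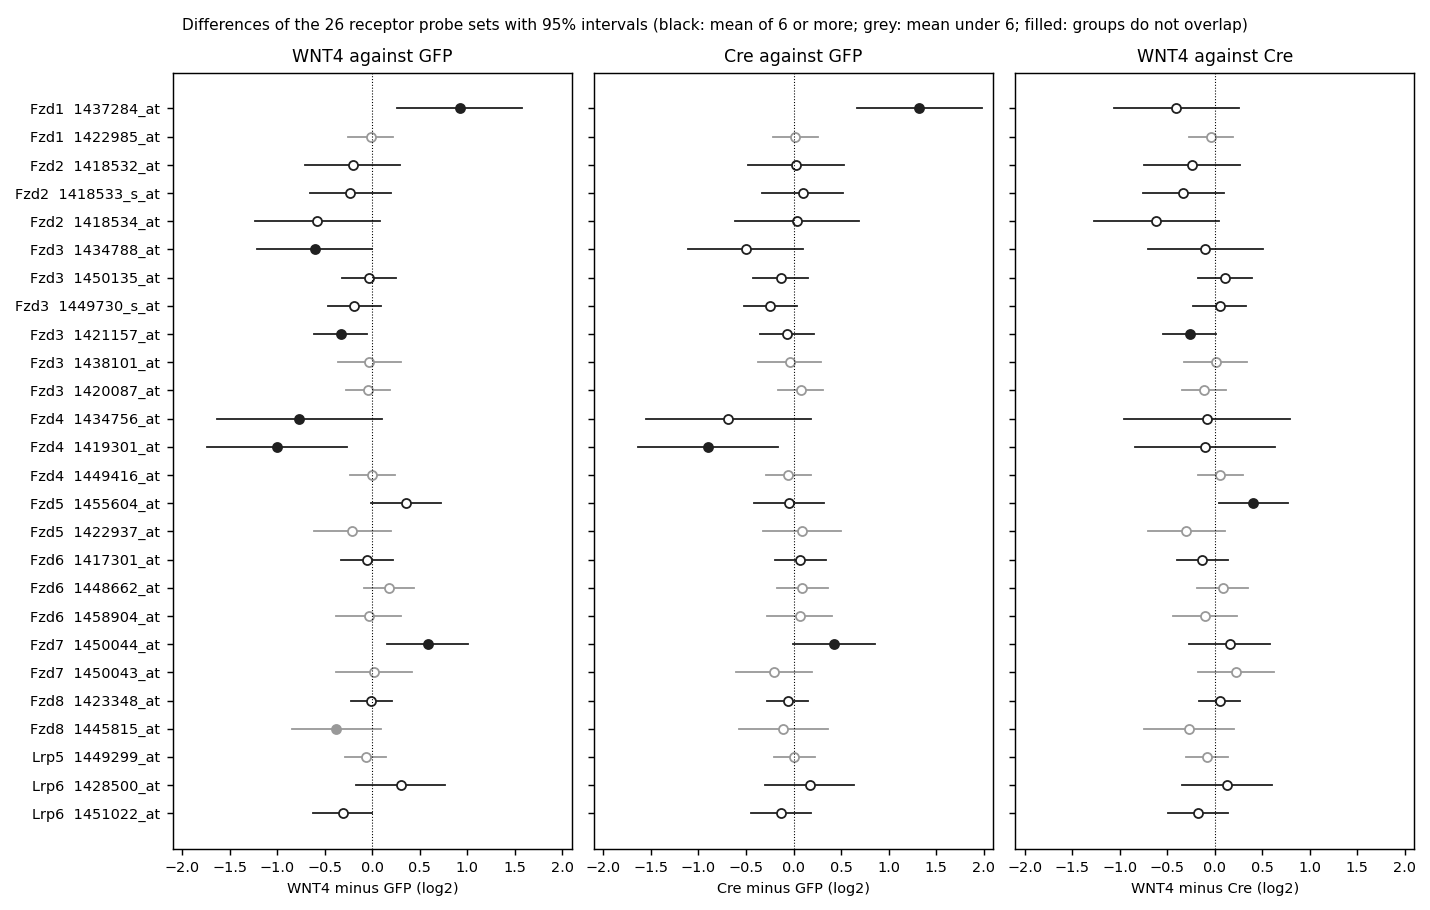
Differences between group means (log2, horizontal axes) of all 26 receptor probe sets for WNT4 against GFP, Cre against GFP and WNT4 against Cre, with limma's 95% intervals. Filled circles mark groups that do not overlap and grey marks probe sets with a mean under 6. The intervals of Fzd1 1437284_at and Fzd4 1419301_at leave 0 in both comparisons with GFP, and most dim probe sets lie close to 0.

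Read together, 7 of 26 receptor probe sets (26.9%) did not overlap between WNT4 and GFP, where 14.8% of all probe sets did not. In 2 of them WNT4 was higher (9.28% of all probe sets), and in 5 it was lower (5.49% of all). The 7 belong to 5 genes, 2 each to Fzd3 and Fzd4, and probe sets of a gene are not independent. Between Cre and GFP 3 did not overlap, against 6.02% of all, with 2 higher (2.98% of all) and 1 lower (3.04%). Between WNT4 and Cre 2 did not overlap, against 8.23% of all, 1 higher (5.38%) and 1 lower (2.85%). Of the 16 receptor probe sets averaging 6 or more, the median difference was -0.20 for WNT4 minus GFP (all 18658 such probe sets, 0.16). It was -0.06 for Cre minus GFP (all, 0.03) and -0.10 for WNT4 minus Cre (all, 0.12). For WNT4 minus GFP 12 of the 16 lay below 0, where 69.2% of all such probe sets lay above 0. The 12 include 4 probe sets of Fzd3 and 3 of Fzd2, so they are not independent. Among these 16 the 95% interval stayed within a 2-fold difference for 10 in WNT4 against GFP, for 12 in Cre against GFP and for 14 in WNT4 against Cre. It did so for all 10 dim probe sets, whose narrow intervals say little near background.

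The rest of the WNT pathway was read from 1 probe set per gene, the one with the highest mean, and limma called 0 of these genes over all probe sets in any comparison. Among 18 other receptors and co-receptors the median of WNT4 minus GFP was 0.01, beside 0.02 for all 18193 genes, with 1 gene higher and 1 lower at an unadjusted p under 0.05. Of all probe sets 9.12% were higher and 3.91% lower by that measure. Ryk, an atypical tyrosine kinase that binds WNTs, was at 0.35 ± 0.12 and Reck, which presents WNT7 to its receptors in endothelium, at -0.37 ± 0.15. Fzd10, a Frizzled outside the 10 genes, was at -0.48 ± 0.23 with overlapping groups. Fzd9 was dim, at 5.42 to 5.88 on all arrays.

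Genes that set how long receptors stay at the surface gave the widest range of these 6 lists in WNT4 against GFP. In that comparison 4 of 18 were higher and 1 lower at an unadjusted p under 0.05, with a median of 0.08 and a range of -1.96 to 0.91. By the same measure 9.12% of all probe sets were higher and 3.91% lower. Cav1, the caveolar coat protein that takes part in LRP6 uptake, differed by 0.91 ± 0.20 (adjusted p = 0.177), and Atp6ap2, the proton pump subunit that links LRP6 to acidification, by 0.48 ± 0.14. Lgr6, a receptor of R-spondins, read 7.78, 9.43 and 7.06 on WNT4 arrays, 9.14, 10.18 and 7.93 on Cre arrays and 10.24, 9.51 and 10.38 on GFP arrays. Within the WNT4 and within the Cre group the array numbered 3 was its lowest, and WNT4 minus GFP was -1.96 ± 0.67 (adjusted p = 0.289). In Cre against GFP, Rnf43, the ubiquitin ligase that removes Frizzleds and is itself a beta-catenin target, differed by 0.31 ± 0.12 at a dim level.

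Ligands and antagonists are on the outside of the same receptors. Of 23 ligand and secretion genes 2 were higher and 1 lower at an unadjusted p under 0.05 in WNT4 against GFP (median -0.09). Here too 9.12% of all probe sets were higher and 3.91% lower. Wnt5a, the prototype of non-canonical ligands, differed by 1.08 ± 0.24 in WNT4 and 0.58 ± 0.24 in Cre, and Wnt10b, a canonical ligand, by 0.64 ± 0.25 in WNT4. Wnt5a read 10.77, 10.03 and 10.77 on WNT4 arrays, 9.77, 9.83 and 10.47 on Cre arrays and 9.45, 9.43 and 9.44 on GFP arrays. Neither the WNT4 nor the Cre group thus overlapped GFP. Among 14 antagonists 1 was higher and 0 lower (median -0.02), namely Apcdd1, an inhibitor that binds WNT and LRP5, at 1.08 ± 0.24 in WNT4 and 0.65 ± 0.24 in Cre. Of these 14, 5 had a mean of at least 6.

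Below the receptors, 10 of 23 signal transducers were higher and 0 lower at an unadjusted p under 0.05 in WNT4 against GFP, with a median of 0.30. By that measure 9.12% of all probe sets were higher and 3.91% lower. Csnk1g1, a membrane-bound casein kinase that phosphorylates LRP6 (0.57 ± 0.12), Rhoa (0.59 ± 0.15) and Rac1 (0.66 ± 0.17), the GTPases of the non-canonical branch, had the lowest p. In this list 21 of 23 genes had a mean of at least 6. The median of all such probe sets was itself 0.16 for WNT4 against GFP, and 69.2% of them lay above 0. In Cre against GFP 1 of 23 was higher, Axin2, where 1.01% of all probe sets were higher and 1.22% lower, and the median was 0.11. In WNT4 against Cre 7 were higher and 1, Axin2, was lower, where 5.07% of all were higher and 1.17% lower. Of 19 measured beta-catenin targets, 8 with a mean of at least 6, 4 were higher and 0 lower in Cre against GFP (median 0.07). They were Axin2, Bambi, Apcdd1 and the dim Rnf43. In WNT4 against GFP 2 were higher, Apcdd1 and Bambi, and 0 lower (median 0.02). The lists share genes: Axin2, Apcdd1 and Rnf43 were already counted among the transducers, the antagonists and the turnover genes.

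**Figure D4:**
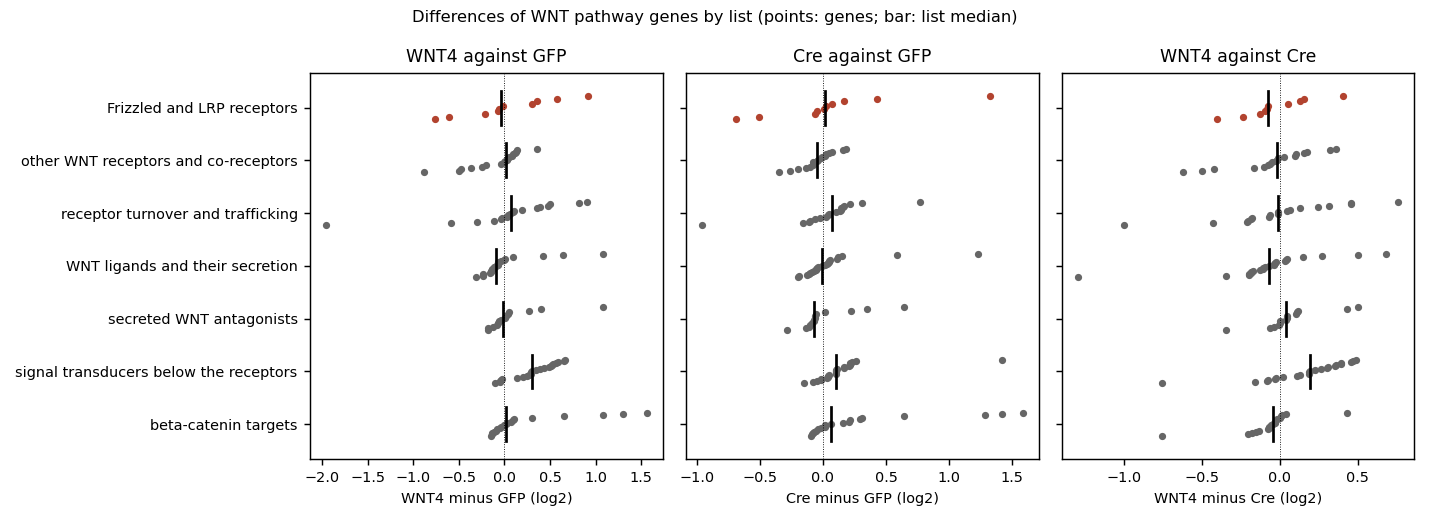
Differences (log2, horizontal axes) of the receptor genes and of 6 lists of other WNT pathway genes in each comparison, 1 probe set per gene. Points are genes and bars list medians. The receptor genes spread on both sides of 0 in each panel, with Fzd1 the rightmost receptor for both comparisons with GFP, while the signal transducers have a median of 0.30 for WNT4 minus GFP.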

How the data were processed

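RNA of granulosa cells was measured on 9 Affymetrix mouse arrays, 3 per virus. Groups and replicate numbers come from the sample titles. The authors deposited log2 values from RMA, per the submitters' processing notes, with no version. RMA removes background, normalizes across arrays and combines the probes of a set, which evens out total signal between arrays. After 64 controls were left out, 45037 of 45101 probe sets were tested. The platform annotation gave 1 symbol for 34945, several for 932 and none for 9160, and Entrez IDs matched 34741 of the single symbols to RefSeq (GRCm38.p6), for 18193 genes. No more than 4.53% of values were equal between any pair of arrays, so none was treated as a copy.

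Linear models over all 9 arrays were fitted with limma 3.58.1 in R 4.3.3 (lmFit, eBayes, 6 residual and 2.80 prior degrees of freedom), two-sided, with Benjamini-Hochberg adjustment over all probe sets. The procedure was tested on simulated data. Array values are given for receptor probe sets that were called, for the 3 of largest difference in each comparison and for the brightest of each gene. Of other lists up to 3 genes with the lowest p are named. Fzd9, Dcn, Acta2, Col1a1, Amh, Bmpr1b, Esr2, Foxl2 and the rank of Bambi fall outside this rule and were named after their values were seen. The same holds for Lum, Pdgfra, Tcf21, Ptch1, Col3a1, Col1a2, Cyp17a1, Gli1 and Rnf128. The receptors and lists were chosen with earlier results of these data known. Listed genes with no probe set of their own are not analysed here. Deviations from group means of same-numbered arrays correlated at -0.08, 0.01 and 0.35 (WNT4 with GFP), at -0.04, -0.31 and 0.31 (Cre with GFP) and at 0.21, 0.24 and 0.77 (WNT4 with Cre). By the rule that every pair exceeds 0.1, only WNT4 and Cre count as paired, from the data and not the labels. Differently numbered arrays reached 0.32 (WNT4 1 with Cre 2) and 0.28 (WNT4 2 with Cre 1). With GFP they reached 0.50 (Cre 1 with GFP 2) and 0.41 (WNT4 2 with GFP 1). In each pair of groups only the arrays numbered 3 thus correlated most with their own number. This includes GFP 3, at 0.35 with WNT4 3 and 0.31 with Cre 3. The pairing of the others is not established.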

Additional observations from a re-analysis of the deposited data

How the results depend on the processing

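No receptor probe set was called under any alternative. Fzd1, Fzd4 and Fzd7 kept the direction of their differences from GFP in every fit run, by the probe sets described as separated: leaving out 1 array at a time gave 0.72 to 1.12 (WNT4) and 1.08 to 1.63 (Cre) for Fzd1, -1.17 to -0.67 and -1.16 to -0.66 for Fzd4, and 0.45 to 0.74 and 0.26 to 0.52 for Fzd7. The smallest differences over all fits were 0.45 and 0.67 for Fzd1 and 0.30 and 0.11 for Fzd7, as means of their probe sets, and -0.56 in both for Fzd4 1419301_at, without the 3 arrays numbered 3. For the other bright Fzd4 probe set, 1434756_at, they were -0.38 (WNT4) and -0.21 (Cre). With the replicate number as a block, 0 receptors were called in each comparison and WNT4 minus GFP for Fzd1 was 0.92 ± 0.18 (adjusted p = 0.146). The block changed no call of a receptor.

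The 7 probe sets called in WNT4 against GFP became 0 with the arrays of the 2 groups alone, 3 after quantile normalization, 17 after centring on the 75th percentile, 15 with dim probe sets left out, 1 with an intensity trend, 32 at an adjusted p under 0.10, and 0 without both Cre 3 and WNT4 3 or without the 3 arrays numbered 3. The fits without several arrays were chosen after seeing the data. Leaving out 1 array gave 0 to 748 (748 without WNT4 2), and 0 to 1 in Cre against GFP.

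Small differences changed sign. For Cre minus GFP, Fzd2 1418532_at was -0.02 after quantile normalization, -0.02 after 75th percentile centring and -0.04 with array weights, and Fzd2 1418534_at was -0.01, -0.01 and -0.08 in the same settings and -0.04 without both Cre 3 and WNT4 3. Lrp5 was -0.04 after 75th percentile centring, Fzd8 was 0.02 without both Cre 3 and WNT4 3, and Fzd5 was 0.02 as the mean of its probe sets. For WNT4 minus Cre, Fzd8 was -0.07 after quantile normalization, -0.05 after 75th percentile centring, -0.02 without both Cre 3 and WNT4 3, -0.02 without the arrays numbered 3 and -0.11 as the mean of its probe sets, and Lrp6 was -0.03 after quantile normalization and -0.02 as the mean of its probe sets. For WNT4 minus GFP, Fzd8 was 0.03 after median centring, Lrp5 0.02 without the arrays numbered 3, Fzd6 0.03 and Lrp6 -0.01 as means of their probe sets. Leaving out 1 array gave for Cre minus GFP -0.09 to 0.15 (Fzd2 1418532_at), -0.19 to 0.22 (Fzd2 1418534_at), -0.06 to 0.05 (Lrp5), -0.17 to 0.04 (Fzd5), -0.02 to 0.17 (Fzd6) and -0.12 to 0.02 (Fzd8). For WNT4 minus Cre it gave -0.34 to 0.23 (Fzd4 1419301_at), -0.43 to 0.35 (Fzd4 1434756_at), -0.35 to 0.13 (Fzd3), -0.03 to 0.11 (Fzd8), -0.02 to 0.29 (Lrp6) and -0.40 to 0.01 (Fzd2 1418532_at). For WNT4 minus GFP it gave -0.05 to 0.02 (Fzd8), -0.38 to 0.04 (Fzd2 1418532_at) and -0.13 to 0.02 (Fzd6). The cause was not tested.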
